A study of Homo sapiens with 4 samples.

Results

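The proteasome genes are described here in the glioblastoma cell lines U251 and U87, with and without brusatol. The 48 genes were chosen by name: all protein-coding genes called PSM, followed by a letter from A to G and a number, among the 58735 genes of the files. The naming rule uses no measured value. RNA of each established line was sequenced in 1 Control library and in 1 library after Bru, which makes 4 libraries with 1 library per condition. Bru is brusatol, a herbal extract dissolved in DMSO, and both lines received it at the IC50, the concentration at the midpoint of inhibition, for 48 h. The labels call the other library of each line control and name no further agent.

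The proteasome is the protease that degrades proteins tagged with ubiquitin. Its barrel-shaped core is built of stacked alpha and beta rings, the beta subunits carry the active sites, and a regulatory particle of base and lid recognises, unfolds and feeds in the substrate. In cells exposed to interferon, the catalytic subunits PSMB5, PSMB6 and PSMB7 are replaced in newly built cores by PSMB8, PSMB9 and PSMB10, which makes the immunoproteasome used in antigen processing. Transcription of the subunit genes is raised together by the factor NRF1, the product of NFE2L1, when proteasomes are short, and the related NRF2 binds the same antioxidant response element in DNA.

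Because that element bears on a group of genes controlled together, promoter sequences are shown first. RefSeq promoters (GRCh38.p14, from 250 bases before to 50 bases after the annotated start) were matched for 42 of the 48 genes, and windows of PSMA7, PSMB1, PSMB6, PSMB7, PSMD4 and PSMG3 were not used here. The core of the element, TGACNNNGC, was searched on both strands, and no other motif was searched. It occurred in 13 of these 42 promoters (31.0%) and in 3702 of all 27305 promoters of the same length (13.6%). The matches were in PSMB3, PSMB9, PSMC4, PSMD1, PSMD3, PSMD5, PSMD9, PSMD12, PSME1, PSME2, PSME4, PSMG1 and PSMG2. The windows of 5 of these genes, 61 bases each, are shown as examples, so that the letters between and around the fixed bases can be compared. All 5 matches lie before the RefSeq start, as do 11 of the 13. The matching letters are in capitals.
PSMB3 (chr17:38752611-38752671, plus strand): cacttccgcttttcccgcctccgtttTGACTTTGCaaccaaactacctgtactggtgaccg
PSMB9 (chr6:32854018-32854078, plus strand): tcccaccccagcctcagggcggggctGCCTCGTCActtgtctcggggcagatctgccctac
PSMD5 (chr9:120843022-120843082, minus strand): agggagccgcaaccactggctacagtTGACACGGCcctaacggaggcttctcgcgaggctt
PSMD9 (chr12:121888662-121888722, plus strand): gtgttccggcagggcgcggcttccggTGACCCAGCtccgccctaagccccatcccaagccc
PSMD12 (chr17:67366708-67366768, minus strand): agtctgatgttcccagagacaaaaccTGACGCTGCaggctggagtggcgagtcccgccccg
The match in PSMB9 reads on the opposite strand, and the other 4 read on the strand of the gene. The RefSeq start of PSMB9 lies inside the gene as GENCODE annotates it, and the window of PSMD5 overlaps an exon of CUTALP. A match describes letters in a window and does not show that a factor binds there.

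Levels are FPKM, fragments counted on a gene, divided by its length in kilobases and by the size of the library, as the authors deposited them. The fragments behind each value, called reads here, could be recovered and added up to between 17083896 and 21453561 per library, so that 3 reads on a gene of 1 kilobase correspond to an FPKM between 0.143 and 0.172. Of the glial and glioma markers, VIM was listed between 606 and 701 FPKM, whereas NES and SOX2 were at 125 and 129 in U251 Control and at 1.46 and 0 in U87 Control. GFAP, S100B and OLIG2 were at 2.42, 0.296 and 0.0284 in U251 Control and at 0.215, 0 and 0.627 in U87 Control. With Bru, 6 of these 7 markers, which include CD44, had log2 ratios below 0 in U251. Beside them, 6741 of all 12949 genes that averaged 1 FPKM or more were below 0. NES was at -1.30 (-1.35 to -1.26), and S100B rests on 9 and 0 reads. In U87, 4 markers were below 0 and 2 above 0, beside 7337 below 0 and 5474 above 0 over all genes. The part of these markers in the results below was not tested. The 6 haematopoietic markers, of cells that use immunoproteasomes, all stayed below 1 FPKM, with PTPRC at 0.0156 and 0.0118 in the Control and Bru libraries of U251 and at 0 in both of U87. Where 4 values follow each other in the text, they are those of Control and Bru in U251 and then of Control and Bru in U87. In RNA of a whole culture, fewer cells of a kind and less RNA per cell cannot be told apart.

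Of the 48 genes, 45 averaged 1 FPKM or more over the libraries and are compared by the log2 ratio of FPKM + 0.1. The other 3 were PSMA6, PSMA8 and PSMB11. Since each condition has 1 library, no ratio has a replicate check or a p-value. Ratios are given with a 95% interval by the exact Clopper-Pearson method from the reads, computed on FPKM without the 0.1. It covers counting error only and compares 2 libraries, not 2 conditions. Counts of proteasome genes are set beside the same count over all 12949 genes at or above the minimum.

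As a group, the proteasome genes were slightly higher in the Bru library of U251 and close to equal in that of U87. The median log2 ratio over the 45 genes was 0.18 in U251 and 0.02 in U87, beside -0.03 and -0.04 over all genes analysed. In U251, 34 of 45 were above 0, where 47.2% of all genes were above 0. In U87, 26 of 45 were above 0, beside 42.3% of all genes. The share of all gene reads that fell on the 48 genes was 0.581% in U251 Control (95% interval 0.578 to 0.585) and 0.710% in U251 Bru (0.706 to 0.714). In U87 it was 0.743% in Control (0.740 to 0.747) and 0.793% in Bru (0.789 to 0.797). These shares divide by the reads recovered over genes, 21453561 and 17847910 in U251 Control and Bru. The FPKM use other library sizes, 20974002 and 18533374 there. In both lines the shares therefore rise more from Control to Bru than they would with the library sizes of the FPKM.

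**Figure D1:**
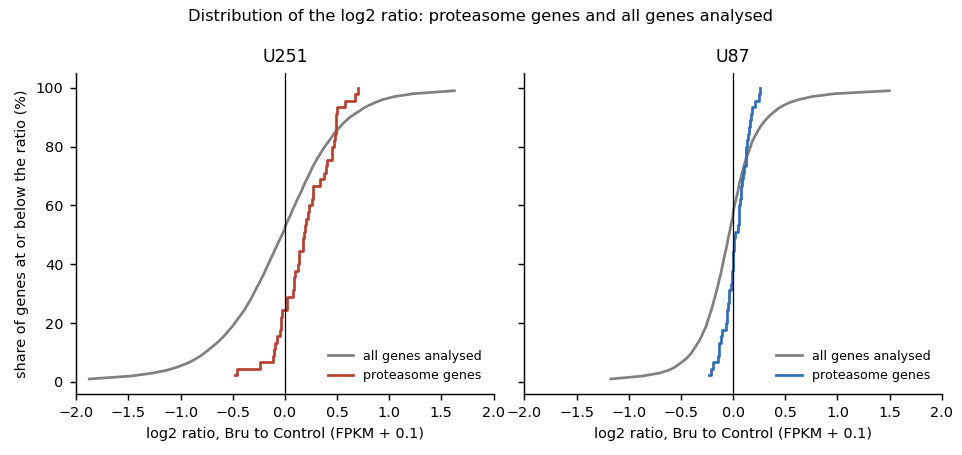
Share of genes (vertical axis, %) at or below a given log2 ratio of Bru to Control (horizontal axis, FPKM + 0.1) for the 45 proteasome genes in colour and all 12949 genes analysed in grey, with U251 left and U87 right. The proteasome curve lies in a narrower range in both lines, with its median at 0.18 in U251 and 0.02 in U87.

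The individual differences were small. No proteasome gene was past a log2 ratio of 1 in either direction in either line. Over all genes, 3.36% were above 1 and 5.44% below -1 in U251, and 1.92% and 1.41% in U87. Above 0.5 in U251 were 3 of 45, PSMB7, PSMB9 and PSMC4, beside 14.3% of all genes, and none of 45 was below -0.5, beside 19.1%. In U87 none was above 0.5, beside 5.75%, and none below -0.5, beside 6.46%. The ratios of the 45 genes ran from -0.48 to 0.70 in U251 and from -0.23 to 0.26 in U87. Their SD over genes was 0.27 and 0.12, where all genes analysed had 0.66 and 0.50. All genes analysed include noncoding genes, and the 10851 protein-coding genes among them had a smaller SD, 0.55 and 0.29. Of these 10851, 1348 were above 0.5 and 1954 below -0.5 in U251. In U87 only 217 were above 0.5 and 547 below -0.5, so few protein-coding genes passed either threshold there.

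The count above 0.5 in U251 depends on how the libraries are scaled, because many of these genes lie just below that value. PSME2, PSMF1, PSMD5, PSMD6 and PSMB6 had log2 ratios between 0.48 and 0.50. Scaled by the total of the recovered reads, 11 proteasome genes were above 0.5, beside 18.4% of all genes, and 39 of 45 (86.7%) were above 0, beside 53.5% of all genes. In U87 the same scaling put 32 of 45 (71.1%) above 0, beside 49.3%, instead of 57.8% beside 42.3%.

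The counting interval lay wholly above 0 for 29 of 45 genes in U251, beside 30.9% of all genes, and wholly below 0 for 3, PSMA2, PSMD1 and PSME4, beside 35.9%. In U87 it lay above 0 for 15, beside 15.7%, and below 0 for 6, PSMC1, PSMD1, PSMD9, PSMD14, PSME1 and PSME2, beside 28.0%. Whether an interval excludes 0 depends on the reads of a gene, and the proteasome genes had higher levels than most. Their median was 28.6 FPKM in U251 Control and 34.5 in U87 Control, beside 6.50 and 6.36 over all genes analysed. The shares with an interval off 0 therefore do not compare the size of the ratios alone. PSMD1 is the member whose interval lay below 0 in both lines.

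The alpha ring, which gates the entry of the core, gave log2 ratios with a median of 0.08 for U251 and of 0.04 for U87 over 6 of its 7 members. PSMA3 had the highest mean ratio of the ring, with 28.6 (Control) and 37.6 FPKM (Bru) in U251 and 41.6 and 49.3 FPKM in U87. Its log2 ratios were 0.39 (0.30 to 0.48) in U251 and 0.25 (0.17 to 0.33) in U87, so it was higher with Bru in both lines. PSMA7, the most abundant member, is named for its level. It stood at 182, 248, 250 and 273 FPKM in the same order, with log2 ratios of 0.45 (0.40 to 0.49) and 0.13 (0.08 to 0.17). PSMA2 had the lowest mean ratio, with 1.15, 0.809, 1.68 and 1.61 FPKM. Its U251 log2 ratio was -0.46 (-0.93 to -0.10), from 129 and 80 reads, and its U87 ratio was -0.05 (-0.39 to 0.27). The interval of PSMA2 is wide because few reads were assigned to it, and 54.1% of its principal transcript lies in exons of other annotated genes.

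The beta ring split within U251. PSMB3, PSMB6 and PSMB7 were higher in the Bru library, and the other 4 members, PSMB1, PSMB2, PSMB4 and PSMB5, had log2 ratios between -0.08 and -0.03 with intervals that include 0. The median of the ring, -0.03 in U251, turned to 0.06 at most under other scalings of the libraries. PSMB7 (chr9:124353466-124415444, minus strand, build GRCh38), which carries the trypsin-like active site, had 62.5 (Control) and 101 FPKM (Bru) in U251 and 171 and 187 FPKM in U87. Its log2 ratio was 0.70 (0.62 to 0.78) in U251, a fold of 1.62, and 0.13 (0.08 to 0.18) in U87. Both U251 libraries were below both U87 libraries, and U251 Control was the lowest of the 4. PSMB6, of the caspase-like site, had 93.4, 130, 107 and 120 FPKM, and its log2 ratios were 0.48 (0.40 to 0.55) and 0.16 (0.09 to 0.24). PSMB5, of the chymotrypsin-like site, had 66.4, 63.0, 65.3 and 62.3 FPKM. Its log2 ratios were -0.08 (-0.16 to 0.01) and -0.07 (-0.16 to 0.02), so the 3 constitutive catalytic genes differed in their ratios within the U251 libraries by more than counting error.

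The immunoproteasome subunits were far below their constitutive partners in all 4 libraries, and more abundant in U87 than in U251. PSMB9 had 0.667 FPKM in U251 Control and 1.12 in U251 Bru, from 43 and 64 reads, and 6.05 and 6.58 in U87 Control and U87 Bru. Its log2 ratio was 0.67 (0.17 to 1.34) in U251 and 0.12 (-0.10 to 0.34) in U87. The groups that stand apart for PSMB9 are the lines: both U87 libraries were above both U251 libraries, with a log2 ratio of U87 Control to U251 Control of 3.00 (2.72 to 3.67). PSMB8 had 7.46, 9.88, 13.0 and 12.7 FPKM, with log2 ratios of 0.40 (0.23 to 0.59) and -0.04 (-0.19 to 0.12). PSMB10 had 2.60, 2.42, 5.61 and 4.90 FPKM, and both of its intervals include 0, with log2 ratios of -0.10 (-0.54 to 0.33) and -0.19 (-0.51 to 0.12). For PSMB10, 45.3% of the principal transcript is shared with exons of another gene, which makes its level uncertain.

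As a share of each catalytic pair, PSMB8 made up 10.1% (9.22 to 11.0) of PSMB8 plus PSMB5 in U251 Control and 13.6% (12.5 to 14.7) in U251 Bru, and 16.6% (15.4 to 17.8) and 16.9% (15.7 to 18.2) in U87. PSMB9 made up 0.710% (0.513 to 0.956) of PSMB9 plus PSMB6 in U251 Control and 0.858% (0.661 to 1.10) in U251 Bru, and 5.35% (4.79 to 5.96) and 5.20% (4.67 to 5.78) in U87. PSMB10 made up 3.99% (3.26 to 4.83) of PSMB10 plus PSMB7 in U251 Control and 2.33% (1.86 to 2.88) in U251 Bru, and 3.17% (2.74 to 3.65) and 2.55% (2.17 to 2.97) in U87. The 3 pairs thus did not move alike in U251: the interval of the PSMB8 share was higher and that of the PSMB10 share lower in the Bru library, and those of PSMB9 overlapped. The lower PSMB10 share in U251 Bru went with a higher PSMB7 level. PSMB10 itself had a log2 ratio of -0.10 (-0.54 to 0.33), from 101 and 83 reads. How much each gene contributed to the lower share was not tested.

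The tissue-specific core subunits were not detected in a usable amount. PSMA8, the alpha subunit of testis, had 0 reads in each of the 4 libraries, which allows up to 3 reads in each. PSMB11, the beta subunit of thymic cortex, had 0 reads in both U251 libraries and 1 read in each U87 library.

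The base ATPases form the ring of motor proteins that unfolds the substrate. In U251, 6 of 6 were above 0, beside 47.2% of all genes, with a median of 0.30. In U87, 4 of 6 were above 0, beside 42.3% of all genes, with a median of 0.06. PSMC4 (chr19:39971005-39981441, plus strand, build GRCh38) had 49.9 (Control) and 74.5 FPKM (Bru) in U251 and 73.4 and 77.6 FPKM in U87. Its log2 ratio was 0.58 (0.50 to 0.65) in U251, a fold of 1.49, and 0.08 (0.01 to 0.15) in U87. The U251 Control library alone was low for PSMC4, with the other 3 between 73.4 and 77.6 FPKM. PSMC1, with the lowest mean ratio of the ring, had 12.6, 13.5, 20.8 and 18.9 FPKM and log2 ratios of 0.10 (-0.00 to 0.20) and -0.14 (-0.23 to -0.05). PSMC1 shares 82.1% of its principal transcript with exons of NRDE2 and has pseudogene copies, which makes its values uncertain.

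The remaining base members are scaffolds and a ubiquitin receptor, and here the members went in opposite directions. PSMD1 (chr2:231056864-231172827, plus strand, build GRCh38), a large scaffold of the base, had 37.5 (Control) and 26.8 FPKM (Bru) in U251 and 57.3 and 49.5 FPKM in U87. Its log2 ratio was -0.48 (-0.56 to -0.41) in U251 and -0.21 (-0.27 to -0.15) in U87, so PSMD1 was lower with Bru in each line while most of the complex was not. PSMD2, the other scaffold, had 148, 162, 210 and 218 FPKM with log2 ratios of 0.13 (0.10 to 0.16) and 0.06 (0.03 to 0.08). PSMD4, the receptor, which was added after its values were seen, had 0.20 (0.13 to 0.28) and -0.06 (-0.15 to 0.04).

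The lid, which holds the deubiquitinase that removes the ubiquitin chain, had a median of 0.16 in U251 and of 0.07 in U87. Above 0 were 7 of 8 members in U251, beside 47.2% of all genes, and 5 of 8 in U87, beside 42.3%. PSMD8 had the highest mean ratio, with 74.3, 102, 96.1 and 115 FPKM and log2 ratios of 0.45 (0.40 to 0.51) and 0.26 (0.21 to 0.31). PSMD14, the deubiquitinase itself, had the lowest mean ratio, with 16.9 (Control) and 18.5 FPKM (Bru) in U251 and 24.6 and 22.2 FPKM in U87. The intervals of PSMD14 lay on opposite sides of 0, at 0.13 (0.06 to 0.21) in U251 and -0.14 (-0.22 to -0.07) in U87. In U251 the highest ratio of the lid was that of PSMD6, 1.40-fold, a gene outside the rule for named genes that was added after its values were seen, as were PSMA7 and PSMG2.

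Assembly of the complex needs chaperones that do not stay in it. Among those of the base, PSMD5 had 14.9 (Control) and 21.1 FPKM (Bru) in U251 and 15.0 and 14.9 FPKM in U87. The U251 Bru library was alone in being high, with a log2 ratio of 0.49 (0.39 to 0.60) beside -0.01 (-0.13 to 0.11) in U87. PSMD9 had 1.41, 1.32, 2.19 and 1.85 FPKM and log2 ratios of -0.10 (-0.37 to 0.16) and -0.23 (-0.48 to -0.01). The chaperones of the core, PSMG1 to PSMG4, had a median of 0.22 in U251 and of 0.03 in U87. Above 0 were 4 of 4 in U251, beside 47.2% of all genes, and 3 of 4 in U87, beside 42.3%. PSMG1 had 19.1, 24.8, 34.9 and 36.1 FPKM and log2 ratios of 0.38 (0.25 to 0.50) and 0.05 (-0.05 to 0.15). PSMG4, at 1.75, 1.87, 1.23 and 1.23 FPKM, had intervals that include 0 in both lines.

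The activators open the core without the regulatory particle. PSME1 and PSME2 form 1 ring, and their genes did not go together in U251. PSME1 had 33.1, 33.5, 40.7 and 37.2 FPKM, with log2 ratios of 0.02 (-0.10 to 0.14) and -0.13 (-0.25 to -0.02). PSME2 (chr14:24143362-24147570, minus strand, build GRCh38) had 23.2, 32.9, 22.5 and 20.9 FPKM, with log2 ratios of 0.50 (0.41 to 0.59) and -0.11 (-0.22 to -0.00). The U251 Bru library was the only high one for PSME2, and the other 3 lay between 20.9 and 23.2. PSME3, the nuclear activator, was at 41.7, 47.4, 41.3 and 44.1 FPKM with log2 ratios of 0.18 (0.12 to 0.24) and 0.09 (0.03 to 0.16). PSME4 was at 11.0, 9.25, 10.7 and 10.8 FPKM with log2 ratios of -0.24 (-0.33 to -0.16) and 0.00 (-0.09 to 0.10). PSMF1, which inhibits the core, was at 12.1 (Control) and 17.0 FPKM (Bru) in U251 and 12.4 and 14.4 FPKM in U87. Its log2 ratios were 0.49 (0.39 to 0.60) and 0.21 (0.10 to 0.33), so the inhibitor was higher with Bru in both lines.

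The difference between the lines was taken as the U251 log2 ratio minus the U87 log2 ratio, with a counting interval and no test. Its median over the 45 genes was 0.15, beside 0.01 over all genes analysed, and 35 of 45 were above 0, beside 50.9%. Above 0.5 were 4 genes, PSMB7, PSMB9, PSMD5 and PSME2, beside 13.7% of all genes, and below -0.5 none, beside 15.5%. PSME2 had the highest difference, 0.61 (0.47 to 0.75), followed by PSMB7 with 0.57 (0.48 to 0.66). Both differences are lower than the threshold of 1, and their replicate error is unknown. In the opposite direction, PSMA2 had the lowest difference, -0.41, with an interval that includes 0 (-0.97 to 0.06), PSMD1 had -0.27 (-0.36 to -0.18) and PSME4 had -0.25 (-0.38 to -0.12).

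The lines also differed in these genes between their Control libraries. The median log2 ratio of U87 Control to U251 Control was 0.37, beside -0.01 over all genes analysed, and 33 of 45 were above 0, beside 49.6%. Past 1 were 4 genes, beside 14.5% of all genes above 1, and none was below -1, beside 16.0%. These were PSMB9 at 3.00 (2.72 to 3.67), PSMB7 at 1.45 (1.38 to 1.53), PSMB10 at 1.08 (0.75 to 1.47) and PSMG2 at 1.01 (0.88 to 1.15). This comparison uses the same Control libraries as the responses to Bru, so a low U251 Control library enters both, and the values of PSMB7 and PSMC4 in all 4 libraries are given above side by side for that reason.

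Per unit of gene length, subunits that are present in equal number in the complex were listed at unequal levels. Over the 14 constitutive core subunits, FPKM in U251 Control ran from 0.799 for PSMA6 to 182 for PSMA7 with a median of 53.3. The range was narrower without genes that share exons. With the 11 subunits that share under 10% of the principal transcript, the highest was 8.73 times the lowest in U251 Control, 10.8 times in U251 Bru, 9.08 times in U87 Control and 9.77 times in U87 Bru. PSMA6 was below the minimum with 0.799, 0.788, 0.783 and 0.998 FPKM, from 92 to 113 reads. Of its principal transcript, 81.0% lies in exons of AL121594.1, a gene annotated across it that had at most 6 reads in a library. How reads in both genes were counted is not given in the sources used here, so the level of PSMA6 is uncertain. The regulatory particle ran from 11.7 FPKM for PSMC6 to 148 for PSMD2 in U251 Control over 17 subunits.

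The order of the levels was kept within a line. Across the 45 genes, Spearman's rho between Control and Bru was 0.986 in U251 and 0.995 in U87, and 0.961 between the Control libraries. Genes are not independent replicates, and these values are descriptions. Across genes the log2 ratio was weakly related to gene length, with a rho of -0.11 in both lines over 12949 genes, and of -0.25 in U251 and -0.12 in U87 over the 45. Among the 3241 shortest genes, up to 2512 bases, 13 proteasome genes had a median of 0.17 in U251 and all of these genes 0.06. Among the next 3236, up to 4493 bases, 13 proteasome genes had a median of 0.39 and all of these genes 0. Longer than that, 12 proteasome genes up to 7056 bases and the 7 beyond both had a median of 0.09, beside -0.06 and -0.09 over all genes of those lengths. In U87 the 4 medians of the proteasome genes, from short to long, were 0.08, -0.01, 0.04 and 0.00.

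Genes with the promoter match were compared with the others that had a window and reached the minimum. Left out were the genes without a window, with U251 log2 ratios of 0.70 for PSMB7, 0.48 for PSMB6 and 0.45 for PSMA7. The others without a window were PSMD4 at 0.20, PSMG3 at 0.17 and PSMB1 at -0.03. Among the 13 members with the match the log2 ratios had a median of 0.26 in U251, from -0.48 to 0.67, and the 26 without it had 0.13, from -0.46 to 0.49. In U87 the medians were -0.00 and 0.04. PSMB9, PSMC4 and PSMD5 hold a match and were higher in U251 Bru. PSMD1, PSME4 and PSMD9 hold a match too, with U251 log2 ratios of -0.48, -0.24 and -0.10, and the interval of PSMD9 includes 0. The other members with a match had U251 ratios above 0. The ranges of both sets overlap.

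Genes outside the rule but tied to the proteasome were read from lists, whose counts above 0 stand beside the 47.2% of all genes in U251 and the 42.3% in U87. Among 10 other proteasome-associated genes, 6 were above 0 in U251 with a median of 0.03, and 2 in U87 with a median of -0.07. POMP, the maturation factor that guides assembly of the beta ring, had 55.9, 89.0, 73.9 and 79.0 FPKM and log2 ratios of 0.67 (0.58 to 0.76) and 0.10 (0.00 to 0.19). PAAF1, which binds the base ATPases, had 0.67 (0.48 to 0.92) and -0.12 (-0.40 to 0.14). At the low end were UBE3C, a ubiquitin ligase on the complex, with -0.34 (-0.40 to -0.27) and -0.04 (-0.10 to 0.03), and SEM1, a small lid subunit, with -0.26 (-0.35 to -0.17) and -0.05 (-0.14 to 0.04).

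In the list of ubiquitin, its E1 enzymes and shuttle factors, 8 of 17 were above 0 in U251 and 9 of 17 in U87, where 47.2% and 42.3% of all genes were. ZFAND2A, a stress-induced proteasome partner, had 6.21 (Control) and 16.5 FPKM (Bru) in U251 and 5.65 and 7.28 FPKM in U87. Its U251 log2 ratio of 1.40 (1.22 to 1.61) was past 1, beside 0.36 (0.11 to 0.62) in U87. RPS27A, which encodes ubiquitin fused to a ribosomal protein, had 141, 278, 204 and 274 FPKM and log2 ratios of 0.98 (0.94 to 1.02) and 0.43 (0.40 to 0.47). VCP, the segregase that extracts ubiquitin-tagged proteins, was lower at 163, 109, 153 and 132 FPKM, with log2 ratios of -0.58 (-0.61 to -0.55) and -0.21 (-0.25 to -0.18). UBA1, the main ubiquitin-activating enzyme, had -0.51 (-0.56 to -0.46) and -0.18 (-0.23 to -0.13).

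Of the 14 genes that control transcription of proteasome genes, 7 were above 0 in U251, near the 47.2% of all genes. In U87 8 of 14 were above 0, a higher share than the 42.3% of all genes. NFE2L1, which encodes NRF1, had 65.4 (Control) and 38.5 FPKM (Bru) in U251 and 64.8 and 54.8 FPKM in U87, so both Bru libraries were below both Control libraries. Its log2 ratios were -0.76 (-0.82 to -0.71) and -0.24 (-0.29 to -0.19). DDI2, the protease that activates NRF1, had 2.43, 4.16, 3.64 and 4.05 FPKM and log2 ratios of 0.75 (0.63 to 0.93) and 0.15 (0.01 to 0.29). NGLY1, which removes glycans from NRF1 and was added after its values were seen, had 0.51 (0.39 to 0.64) and -0.11 (-0.26 to 0.03). KEAP1, the inhibitor of NRF2, had 0.37 (0.28 to 0.46) and 0.13 (0.04 to 0.21), and NFE2L2, which encodes NRF2 and was likewise added, had 0.09 (-0.02 to 0.21) and -0.23 (-0.35 to -0.11). RNA levels do not show the processing and stability of these proteins.

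Of the genes that induce or serve the immunoproteasome, 6 of 13 were above 0 in U251 and 3 of 13 in U87, beside 47.2% and 42.3% of all genes. TAP1, the peptide transporter whose gene neighbours PSMB9, had log2 ratios of 0.72 (0.54 to 0.94) and 0.29 (0.13 to 0.46). IRF1, an interferon-induced activator, had 0.44 (0.28 to 0.63) and 0.42 (0.24 to 0.62). HLA-C, a class I molecule, had -0.81 (-0.96 to -0.66) and -0.34 (-0.52 to -0.17), and ERAP2, a peptide-trimming enzyme, had -0.77 (-0.94 to -0.63) and -0.21 (-0.31 to -0.12).

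As complexes of similar build, the COP9 signalosome, a relative of the lid, and the CCT chaperonin, a ring of folding subunits, gave medians of 0.24 and 0.29 in U251, beside 0.18 for the proteasome. In U87 their medians were 0.10 and -0.00, beside 0.02. The signalosome had 9 of 10 members above 0 in U251 and 8 of 10 in U87, COPS5 at 0.56 (0.46 to 0.68) and COPS6 at 0.52 (0.46 to 0.58) being highest in U251 and COPS7A at -0.05 (-0.17 to 0.08) lowest. The chaperonin had 8 of 8 above 0 in U251, from TCP1 at 0.05 (-0.00 to 0.11) to CCT7 at 0.58 (0.53 to 0.63), and 4 of 8 in U87. All 3 complexes thus had a small positive median in U251.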

How the data were processed

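RNA of 4 libraries was measured, U251 and U87 as Control and after Bru. The authors deposited FPKM per gene with a gene length. Per the labels, the NEB Next Ultra kit and paired-end reads were used, and no strand setting is stated. The submitters' processing notes name HISAT2 2.0.5, StringTie 1.3.3b, featureCounts 1.5.0-p3, DESeq2 1.16.1 and hg18, without roles, but all 58735 genes carry the coordinates of GENCODE release 29 (GRCh38), which were used here.

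FPKM times length was a whole multiple of 1 step for 100% of values above 0 (tolerance 0.001 reads), which gave the reads and a library size of 20974002, 18533374, 18070193 and 17406238 for U251 Control, U251 Bru, U87 Control and U87 Bru. Log2 ratios used FPKM + 0.1 and a mean FPKM of at least 1. Counting intervals were exact Clopper-Pearson (95%), and those of differences between lines used the delta method. PCR duplicates cannot be recognised, so intervals cover counting error only. The design has 1 library per condition, so no test was made.

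Exon sharing was computed from GENCODE 29. Named genes were the catalytic, immunoproteasome and activator genes with PSMF1, the highest and lowest mean ratio of each other subgroup, members below the minimum and the 2 highest and 2 lowest of each other list, plus those said to be added. The naming rule uses no measured value, but this group of genes and the lists were picked with earlier results of these data known. Alternatives were pseudocounts of 1 and 0.01, 5 other scalings and 3 other filters. Scripts (Python 3.11.15, numpy 2.4.6, scipy 1.17.1, pandas 2.3.3, matplotlib 3.10.9) were tested on simulated data.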

Additional observations from a re-analysis of the deposited data

Results flagged for a closer look

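The counting intervals of 2 proteasome genes lay on opposite sides of 0 in the lines. PSME2, part of the activator ring with PSME1, was higher in the Bru library of U251 and lower in that of U87, with a difference of 0.61 between the log2 ratios. The U87 interval of PSME2 ended just below 0, at -0.00052, and 4 of the 5 other scalings moved its U87 ratio from -0.11 to between -0.07 and -0.05, so that its interval then includes 0. That of TPM moved it to -0.114. PSMD14, the deubiquitinase of the lid, went the same way with a difference of 0.28. Neither difference was tested, since each line has 1 library per condition. PSME2 shares 12.0% of its principal transcript with exons of RNF31 and MIR7703. RNF31, the larger overlap, had an FPKM of 5.18, 4.13, 2.15 and 2.31 in U251 Control, U251 Bru, U87 Control and U87 Bru, and its part in the result was not tested.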

How the results depend on the processing

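No median over the proteasome genes changed sign under any alternative run. The U251 median ran from 0.17 to 0.27, the U87 median from 0.02 to 0.08, the difference between lines from 0.14 to 0.20 and the median of U87 Control to U251 Control from 0.25 to 0.40. The number of genes above 0.5 in U251, 3 as reported, was 8 with log2 ratios shifted to a median of 0 over the genes analysed and 8 in TPM, and 11 with 75th percentile scaling, with reads scaled by their total over genes and with that total taken without mitochondrially encoded genes. It was 2 with a pseudocount of 1, beside 10.3% of all genes, and 4 with a pseudocount of 0.01, beside 15.2%. With a mean FPKM of at least 5 it was 2 of 40, beside 12.9%. Under the other scalings, all genes analysed above 0.5 made up 15.5% to 18.4% instead of 14.3%. The number below -0.5 in U251, 0 as reported, was 1 with a pseudocount of 0.01, namely PSMA2, beside 19.9% of all genes. In U87 no proteasome gene was past 0.5 in either direction under any alternative. Over all genes, between 2.38% and 14.5% were above 0.5 and between 3.61% and 12.2% below -0.5 there, depending on the alternative. Added after the data were seen, keeping only members that share under 10% of the principal transcript gave medians of 0.20 and 0.06 over 35 genes. Of 686 alternative values for single genes, 81 lay outside the counting interval of the reported value, and none reversed a difference whose interval excludes 0. Medians of subgroups close to 0 did change sign with the scaling, that of the beta ring in U251 from -0.03 to at most 0.06 and, in U87, those of the immunoproteasome subunits from -0.04 to at most 0.02, of the activators from -0.05 to at most 0.0049, of the base assembly chaperones from -0.01 to at most 0.05 and of the other base subunits from -0.06 to at most 0.0018. With a pseudocount of 1, the PSMB9 share in U251 Control was 1.74% and in U251 Bru 1.60%, so the order of these shares turned. No paired analysis was possible because each condition has 1 library, and no library could be left out for the same reason. Depth limits the genes with few reads, such as PSMB9 with 43 to 352 reads per library, PSMA2 with 80 to 162 and PSMA6 with 92 to 113, and PSMA8 and PSMB11 had at most 1.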
